A study of Mus musculus with 4 samples.

Results

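The genes described here are the chemokines and chemokine receptors, 62 of the 56832 gene symbols listed for cultured mouse microglia. They were taken by symbol alone: every Ccl, Cxcl, Cx3cl and Xcl ligand (39 genes) and every Ccr, Cxcr, Cx3cr, Xcr and Ackr receptor with Ccrl2 (23 genes). The receptors comprised 18 signalling receptors and 5 atypical ones (Ackr1 to Ackr4 and Ccrl2). Pf4 and Ppbp, which are also CXC chemokines, carry other symbols and were not members. RNA was sequenced in 4 libraries of 1 group: endogenous microglia of C57BL/6 mice, labelled female, kept in primary glial culture and sorted by flow cytometry after trypsin; the labels name no treatment. Neither the sorting markers nor the animals' age is stated, and nothing says that the libraries came from separate cultures, so an SD or p here speaks for differences among 4 libraries and may reflect technique alone. The study's design sets these cells beside cultured blood stem and progenitor cells, alone or grown with glia for some days. Those groups were not analysed here, so ligands were compared with receptors within each library and the libraries with each other.

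Chemokines are small secreted proteins that direct the movement of leukocytes. They are sorted into CC, CXC, CX3C and C families by the spacing of their leading cysteines, and they signal through receptors coupled to inhibitory G proteins. Atypical receptors bind chemokines without that coupling and mostly remove or transport them. Microglia are known for the receptor Cx3cr1, whose ligand Cx3cl1 (fractalkine) is made chiefly by neurons, and for releasing CC chemokines such as Ccl2, Ccl3 and Ccl4 when stimulated.

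The libraries held 23212183 to 28469813 gene counts. Levels are given as CPM (counts scaled to a fixed library total) when 1 gene is compared between libraries, and as TPM (the same with counts divided by gene length) when genes are compared. A count of 0 allows up to 3 counts, at most 0.129 CPM in any 1 library, for counting error only. Markers of the labelled cell type were high: the 10 microglial markers were all at 1 CPM or more in every library, among them Fcrls, an Fc receptor-like gene (5346 TPM ± 18.02, SD, n = 4 here and below), and the growth factor receptor gene Csf1r (2830 ± 108). The label of female sex went with Xist at 300.2 CPM ± 42.9, but the Y-linked genes Ddx3y (36.2 ± 5.44), Kdm5d (20.5 ± 0.742) and Eif2s3y (18.8 ± 1.90) were present in every library as well.

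A member was counted as detected when it reached 1 CPM in all 4 libraries. By that rule 22 of 62 members were detected (35.5%), beside 20.6% of all listed genes and 51.8% of protein-coding genes. A further 19 had some counts, and 21 had 0 counts in every library. The shares were alike for ligands (14 of 39, 35.9%) and receptors (8 of 23, 34.8%). All members together took 0.444% ± 0.0135 of the gene counts, and receptors took 0.370% ± 0.0110 against 0.0737% ± 0.00626 for ligands.

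**Figure D1:**
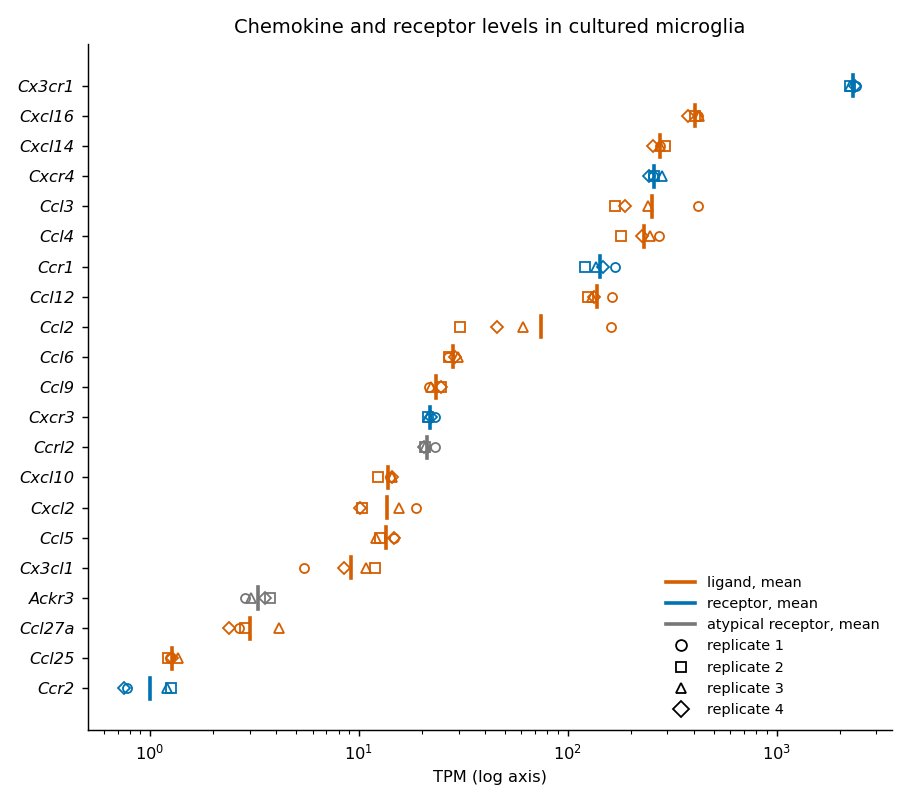
TPM on a log axis for 21 members at 1 CPM or more in every library; open symbols are the 4 libraries, vertical bars their means, and colours mark ligands, signalling receptors and atypical receptors. Cx3cr1 lies alone at the top, at 2311 TPM, and the 4 libraries lie furthest apart for Ccl2 and Ccl3.

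The summed level of the receptors was higher than that of the ligands, and 1 gene made the difference. Receptors summed to 3014, 2812, 2833 and 2942 TPM in replicates 1 to 4, and ligands to 1848, 1311, 1504 and 1341. Cx3cr1 supplied 79.7% ± 0.592 of the receptor sum. On the log2 scale ligands stood below receptors by -0.96 ± 0.20. Without Cx3cr1 the receptors summed to 589 TPM ± 24.8, and the ligands stood above them by 1.34 ± 0.17, in all 4 libraries; on CPM without gene length that difference was 0.22. Medians over the members gave another picture. The median of log2(TPM + 1) over all ligands minus that over all receptors was -0.18, -0.31, 0.29 and 0.06 in replicates 1 to 4, a mean of -0.04 ± 0.27 whose sign was not shared by the libraries. Both medians lie near 0 because most members of either kind were below detection. Over the 14 ligands and 8 receptors detected, a set chosen by its level, the difference was -1.23, -0.96, -1.02 and -1.04, a mean of -1.06 ± 0.12, with the receptor median higher in every library.

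Among the receptors, Cx3cr1 was at 3137, 3003, 2984 and 3159 CPM in replicates 1 to 4, or 2311 TPM ± 78.4. It was the highest member in every library, and its libraries differed by little (coefficient of variation 2.93%). Cxcr4, the receptor for Cxcl12 that holds many immature blood cells in place, was the next receptor at 134, 139, 151 and 132 CPM (260 TPM ± 15.3). Ccr1, an inflammatory receptor for Ccl3, Ccl5, Ccl6 and Ccl9, followed at 138, 102, 114 and 124 CPM (143 TPM ± 19.5). Its range in TPM lay below that of Cxcr4 in all 4 libraries.

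Other detected receptors were lower. Cxcr3, the receptor for the interferon-induced ligands Cxcl9, Cxcl10 and Cxcl11, was at 11.7, 10.97, 10.9 and 11.3 CPM (22.0 TPM ± 0.882). Ccrl2, an atypical receptor that presents the attractant chemerin, was at 17.4, 15.9, 16.0 and 15.8 CPM (21.3 TPM ± 1.20), and its range overlapped that of Cxcr3. Ackr3, a scavenger of Cxcl12, was at 2.78, 3.71, 3.02 and 3.55 CPM (3.30 TPM ± 0.423). Ccr2, the receptor by which monocytes follow Ccl2, was the lowest detected member, at 1.52, 2.52, 2.41 and 1.51 CPM (0.997 TPM ± 0.272). Other monocyte markers bear on it: Ly6c2, Plac8 and Chil3 had 0 counts in every library, while S100a4 (65.2 TPM ± 17.6) and Fn1 (57.1 ± 6.997) were present.

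Below detection, Ccr10 had 31, 6, 8 and 7 counts and Ccr3 had 20, 8, 20 and 15. Ackr1, Ccr9, Cxcr6 and Xcr1 had 15, 13, 11 and 5 counts over all libraries. The receptors at 0 were Ccr4, Ccr6, Ccr7, Ccr8, Cxcr1, Cxcr2, Cxcr5, Ackr2 and Ackr4. Several of these mark other leukocytes: Cxcr2 neutrophils, Ccr7 migrating dendritic cells and T cells, Cxcr5 B cells. The markers of those cells were sparse too. Of 8 neutrophil markers 7 had 0 counts, of 8 T and NK cell markers 6, of 8 dendritic cell markers 2, and of 8 B cell markers 3; Cxcr2, Ccr7, Xcr1 and Cxcr5 are themselves on these lists. Against this, the antibody chain gene Ighm was at 326 TPM ± 14.1, beside 0 counts of Pax5.

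The ligand with the highest mean was a CXC gene. Cxcl16, a membrane-bound chemokine that also takes up oxidised lipoprotein, was at 370, 364, 379 and 337 CPM (407 TPM ± 22.0), above every other ligand in every library; Ccl3 came closest, in replicate 1, at 418 TPM against 421. Cxcl14, whose receptor is not settled, was at 147, 158, 150.0 and 139 CPM (276 TPM ± 14.9), a range that lies within that of Ccl3, which was above it in replicate 1. In GENCODE M21 the gene Zmynd15 on the other strand overlaps 18.3% of the exon bases of Cxcl16; whether strand was used in counting is not given. Cxcl10, which draws T cells through Cxcr3, was at 9.26, 8.28, 9.56 and 9.62 CPM (13.8 TPM ± 0.942). Cxcl2, a neutrophil attractant, was at 11.3, 6.31, 9.56 and 6.25 CPM (13.7 TPM ± 4.19). The ranges of Cxcl10, Cxcl2 and Ccl5 overlapped in turn.

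Other CXC ligands were near or at 0. Cxcl12, Cxcl9 and Cxcl3 had 49, 29 and 28 counts over the 4 libraries. Cxcl13, Cxcl11, Cxcl1 and Cxcl5 had 1 to 3 counts, and Cxcl15 and Cxcl17 had 0. GENCODE M21 types Cxcl11 as a polymorphic pseudogene, and Gm2673 on the other strand overlaps 41.7% of its exon bases. Cxcl11 was kept as a ligand in the pairs below. The neutrophil attractants were uneven among themselves: Cxcl2 had 852 counts against 28 for Cxcl3 and 1 for Cxcl1. The transcripts of Cxcl2 and Cxcl3 share an identical run of 157 bases, so some reads of these genes could have been left out as ambiguous in position.

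The bases before the start sites of these uneven genes, from RefSeq on GRCm38.p6, show what they have in common. The promoter table matched 47 of the 62 members; Ccl2, Ccl4 and Ccl7 were not among them. Each line is the 250 bases before the start, 5′ to 3′ on the strand of the gene, and capitals mark matches to the NF-kB consensus, or to the AP-1 motif TGANTCA, on either strand. Cxcl1, Cxcl2 and Cxcl3 are shown because they are close relatives at different levels, Cxcl10 for its several matches, and Ccl3 because it differed between libraries.
Cxcl1 (chr5:90890995-90891244, + strand): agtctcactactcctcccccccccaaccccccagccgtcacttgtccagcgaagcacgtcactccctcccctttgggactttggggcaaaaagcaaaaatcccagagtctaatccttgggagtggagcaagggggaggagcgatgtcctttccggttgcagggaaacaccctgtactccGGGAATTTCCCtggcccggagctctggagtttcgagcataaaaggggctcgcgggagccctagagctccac
Cxcl2 (chr5:90903649-90903898, + strand): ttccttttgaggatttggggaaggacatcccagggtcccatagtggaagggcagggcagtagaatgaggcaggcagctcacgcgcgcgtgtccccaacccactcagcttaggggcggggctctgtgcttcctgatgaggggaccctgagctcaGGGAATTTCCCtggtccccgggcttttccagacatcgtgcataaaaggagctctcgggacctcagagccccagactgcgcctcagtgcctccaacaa
Cxcl3 (chr5:90785851-90786100, + strand): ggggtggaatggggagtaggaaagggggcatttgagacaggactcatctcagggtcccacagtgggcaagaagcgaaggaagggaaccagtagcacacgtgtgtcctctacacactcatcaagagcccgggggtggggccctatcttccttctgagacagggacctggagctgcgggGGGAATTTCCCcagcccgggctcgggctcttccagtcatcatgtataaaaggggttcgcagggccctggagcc
Cxcl10 (chr5:92348890-92349139, - strand): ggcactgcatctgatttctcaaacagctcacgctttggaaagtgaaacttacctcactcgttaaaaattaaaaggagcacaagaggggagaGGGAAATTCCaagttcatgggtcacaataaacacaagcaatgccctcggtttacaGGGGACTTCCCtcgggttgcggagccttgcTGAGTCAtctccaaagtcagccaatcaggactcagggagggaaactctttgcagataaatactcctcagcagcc
Ccl3 (chr11:83649379-83649628, - strand): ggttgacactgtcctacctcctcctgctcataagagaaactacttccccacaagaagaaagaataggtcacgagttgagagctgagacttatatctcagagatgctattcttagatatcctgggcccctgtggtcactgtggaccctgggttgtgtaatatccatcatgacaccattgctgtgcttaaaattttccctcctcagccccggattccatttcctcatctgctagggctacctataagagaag

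Cxcl1, Cxcl2 and Cxcl3 each held an NF-kB match in overlapping copies, beginning 71, 97 and 73 bases before the start, so their different counts went with matches to the same motif. Cxcl10 held NF-kB matches beginning 159 and 104 bases before the start and an AP-1 match at 74. Ccl3 held neither in this window. Across members with a promoter, 12 of 47 (25.5%) held an NF-kB match in at least 1 promoter, beside 8.23% of the 26994 genes in the table. Counted by promoter, since some genes have several, the shares were 12 of 56 (21.4%) and 7.25% of 32817. The share was 29.4% for the 17 detected members with a promoter and 23.3% for the 30 others. For AP-1 the shares by gene were 12.8% of members and 7.82% of all genes. A match is a description of the letters, not a site known to be used.

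The CC ligands, which are the largest family among the ligands listed, were also the largest detected group. Ccl3 and Ccl4, known as macrophage inflammatory proteins, were at 254.5 TPM ± 114 and 232 ± 39.5. Ccl12, a mouse ligand of Ccr2, was at 25.3, 20.0, 20.8 and 21.3 CPM (138 TPM ± 16.4). Ccl2, the main monocyte attractant, was at 74.8 TPM ± 59.4. Ccl6 was at 14.0, 14.4, 15.8 and 15.4 CPM (28.1 TPM ± 1.39) and Ccl9 at 19.1, 22.2, 19.9 and 22.3 CPM (23.3 TPM ± 1.64). Both are rodent ligands of Ccr1, and neither varied by more than a coefficient of variation of 7.73%. Ccl5, which draws T cells and monocytes, was at 4.11, 3.58, 3.45 and 4.18 CPM (13.5 TPM ± 1.36).

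The lowest detected ligands were Ccl27a (1.85, 2.01, 2.93 and 1.69 CPM, 3.02 TPM ± 0.785) and Ccl25 (2.69 to 3.02 CPM, 1.28 TPM ± 0.0643), known from skin and from thymus and gut. Ccl27a shares an identical run of 210 bases with its copy Ccl27b, which was at 0, so its value is uncertain. Ccl7, a relative of Ccl2, had 178, 17, 39 and 46 counts and missed detection only through replicate 2. Ccl22, Ccl24, Ccl28, Ccl8 and Ccl17 had 18, 11, 6, 3 and 2 counts in total. Ccl1, Ccl11, Ccl19, Ccl20, Ccl21a, Ccl21b, Ccl21d, Ccl26 and Ccl27b were at 0, as was the C chemokine Xcl1. The CX3C ligand Cx3cl1 was detected at 6.26, 13.9, 12.6 and 9.87 CPM (9.17 TPM ± 2.85), lowest in replicate 1.

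Many of these genes lie side by side, in groups of members with at most 3 other protein-coding genes between neighbours (order from RefSeq, GRCm38.p6), and neighbours differed widely in level. In the run Ccl2, Ccl7, Ccl11, Ccl12, Ccl8, Ccl1, the genes Ccl2, Ccl7 and Ccl12 were present and the rest were at 0 to 3 counts. In another run, Ccl5, Ccl9, Ccl6, Ccl3, Ccl4, all 5 genes were detected, from 13.5 to 254.5 TPM. In the receptor run Ccr9, Cxcr6, Xcr1, Ccr1, Ccr1l1, Ccr3, Ccr2, the gene Ccr1 was at 143 TPM and the others had means under 2 TPM. In the run Cxcl5, Ppbp, Pf4, Cxcl3, Cxcl15, Cxcl1, Cxcl2, the highest gene was the non-member Pf4, platelet factor, at 309 TPM ± 14.4, and Ppbp was at 3.97 ± 0.440. Cx3cl1 lies between Ccl22 and Ccl17, of which neither was detected.

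**Figure D2:**
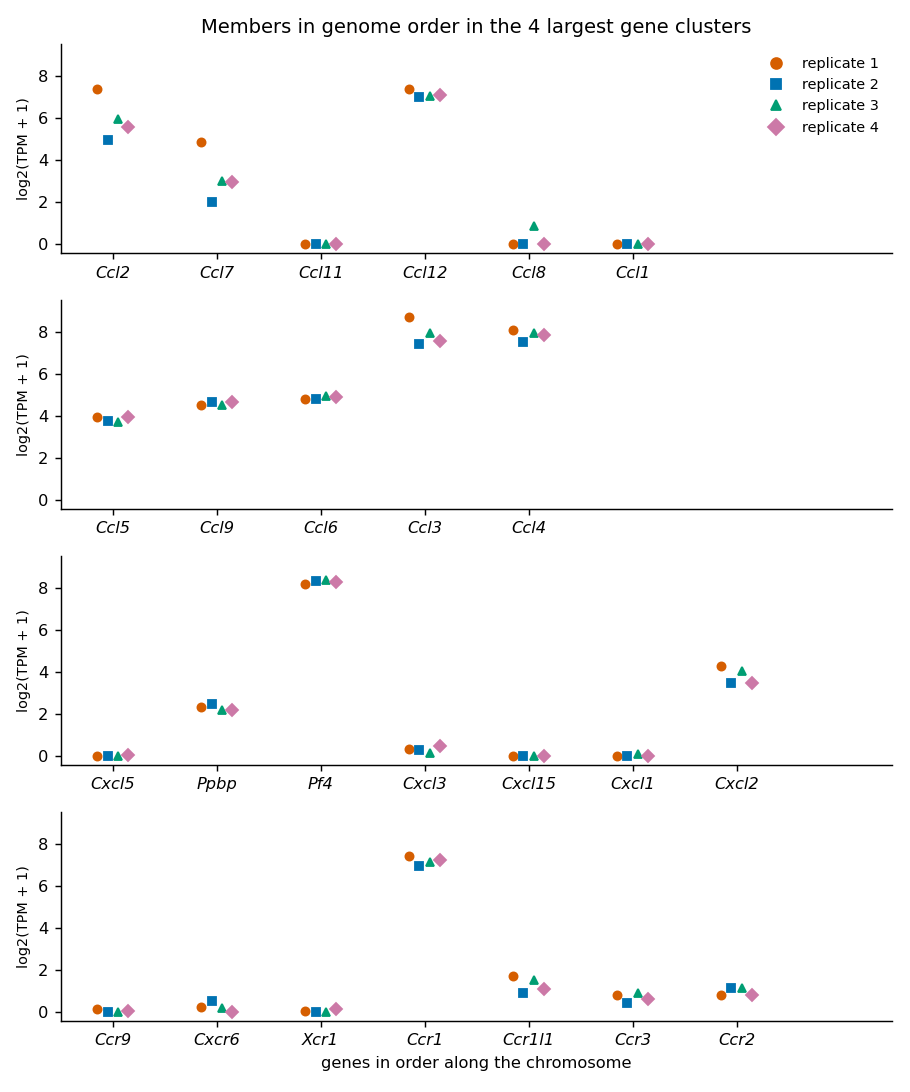
log2(TPM + 1) in the 4 libraries for the 4 longest runs of neighbouring genes, drawn in genome order without distances; Pf4, Ppbp and Ccr1l1 are neighbours that are not members. Ccl5, Ccl9, Ccl6, Ccl3 and Ccl4 were all detected, whereas in the receptor run Ccr1 stands above neighbours with means under 2 TPM.

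Pairing ligands with receptors from a fixed list of 49 known combinations gave 37 with signalling receptors and 12 with atypical ones. In 11 signalling pairs both partners were detected, in 5 only the ligand, in 5 only the receptor and in 16 neither. Each of the 30 pairs with a detected partner kept its direction in all 4 libraries. The exact two-sided sign-flip permutation test gave p = 0.13 for each, adjusted p = 0.13 over the 30, which is the smallest that 4 libraries allow, so no pair could pass 0.05. The receptor was the higher partner in 12 and the ligand in 18. Both partners were detected in only 11 of the 30, and these kept their direction in every library. In the rest only the ligand (12 pairs) or only the receptor (7 pairs) was detected. For those pairs a constant direction was largely set by the choice of pairs, so no conclusion is drawn from it or from their part of the split.

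Receptors far above their ligands were Cx3cr1 and Cxcr4. Cx3cr1 was 252 times the level of Cx3cl1 in TPM, a ligand minus receptor difference of -7.88 ± 0.49 on the log2(TPM + 1) scale. With the median length of coding transcripts in place of merged exons that difference was -5.19, of the same sign and smaller. Cxcr4 stood above Cxcl12 by a difference of -7.79 ± 0.24, where Cxcl12 had 11, 5, 5 and 28 counts. Cxcr3 was above Cxcl9 (-4.13 ± 0.17) and Cxcl11 (-4.50 ± 0.02) but close to Cxcl10 (-0.64 ± 0.09). With median transcript lengths the last difference was 0.19, those of Cxcl9 and Cxcl11 were -3.22 and -3.39, and that of Cxcl12 from Cxcr4 was -6.99; on CPM without gene length the latter was -6.61.

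Ligands with little or no receptor formed the opposite group. Cxcl16 was at 407 TPM while its receptor Cxcr6 had 3, 6, 2 and 0 counts, a difference of 8.42 ± 0.19 (7.53 with median transcript lengths). Cxcl2 was at least 72.7-fold higher than Cxcr2, taking 3 counts per library as the floor for a receptor at 0. Ccl12 and Ccl2 exceeded Ccr2 by 6.13 ± 0.33 and 4.97 ± 1.13. These sizes rest on gene length, since the differences were 2.95 and 2.87 on CPM without it and 5.02 and 4.35 with median transcript lengths. The scavenger Ackr2 was at 0 beside its ligands Ccl2, Ccl3, Ccl4 and Ccl5, of which Ccl3 was at least 1223-fold higher.

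Ccr1 was present together with several of its ligands. Ccl3 exceeded it by 0.74 ± 0.43, but on CPM without gene length the difference was -1.13, so no order between these partners is given. Ccl5 lay below Ccr1 by -3.31 ± 0.12, a difference of -4.64 on CPM and -2.44 with median transcript lengths. Ccl6 and Ccl9 lay below Ccr1 by -2.30 ± 0.22 and -2.56 ± 0.27, the former -2.92 on CPM. These are levels of RNA in sorted cells and give no measure of ligand made by other cells of the culture.

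**Figure D3:**
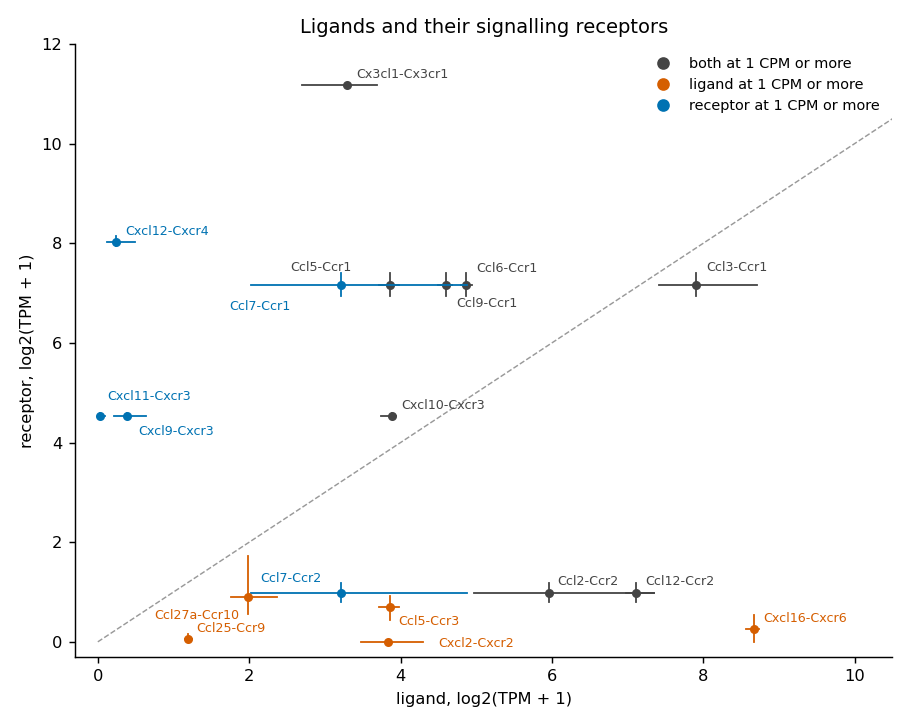
Mean log2(TPM + 1) of the ligand (x) and the receptor (y) for 18 signalling pairs with a detected partner; thin lines span the lowest to highest library and the dashed line marks equal levels. Cx3cl1-Cx3cr1 and Cxcl12-Cxcr4 lie high on the left, Cxcl16-Cxcr6 low on the right, and Ccl3-Ccr1 lies near the line.

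The libraries were then compared with each other, gene by gene. Ccl2, Ccl3 and Ccl7 differed between libraries beyond genes of like abundance, and all 3 were highest in replicate 1. They were 3 of 23 members tested (13.04%), where 1.11% of all 12879 genes tested passed the edgeR deviance test at a Benjamini-Hochberg adjusted p under 0.05, and 0.528% passed and were highest in replicate 1. At an unadjusted p under 0.05 there were 7 members (30.4%), beside 6.79% of all genes. By role, 3 of 15 tested ligands passed and 0 of 8 receptors; 1 receptor, Ccr1, had an unadjusted p under 0.05, and DESeq2 marked 0 receptors as dispersion outliers. Whether ligands and receptors differ in this was not tested.

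Replicate 1 held 53.6 CPM of Ccl2, and replicates 2, 3 and 4 held 10.2, 20.5 and 15.6 (edgeR adjusted p = 1.6e-28). The level in replicate 1 was 3.47 times the mean of the others, which did not reach it. Ccl7 was at 6.59 CPM against 0.725, 1.68 and 1.62 (edgeR adjusted p = 4.7e-06), or 4.92 times the mean of the others. Ccl3 was at 93.2 CPM against 38.4, 55.1 and 42.6 (edgeR adjusted p = 1.6e-13), or 2.05 times. Without replicate 1, Ccl2 still passed (edgeR adjusted p = 0.028) while Ccl3 (0.28) and Ccl7 (0.93) did not. Replicate 2 was the lowest library for each of the 3.

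Ccl2 and Ccl7 lie side by side, and both passed. Other tested neighbours and relatives of the called genes did not pass the same test. Ccl4, next to Ccl3, was at 52.3, 35.03, 48.4 and 44.5 CPM (edgeR adjusted p = 0.27), with replicate 1 at 1.23 times the mean of the others. Ccl12, in the run with Ccl2 and Ccl7, was at 1.22 times (edgeR adjusted p = 0.9999), and Cxcl2 at 1.53 times (0.41). Ccl6 and Ccl9 were lowest in replicate 1, at 0.919 and 0.890 times. Ccr1 was highest there, at 1.22 times (edgeR adjusted p = 0.38), and Cx3cl1 lowest, at 0.517 times (0.092). With a common dispersion for all genes, Cx3cl1 and Cxcl2 passed as well.

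**Figure D4:**
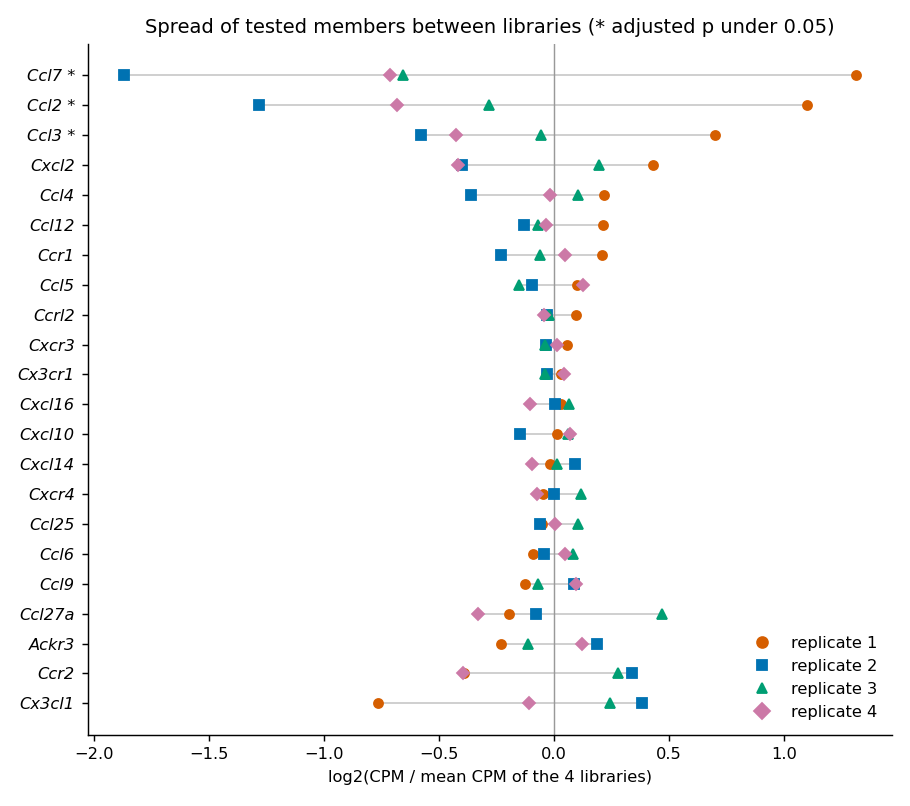
log2 of each library's CPM over the mean of the 4 libraries for 22 tested members, sorted by replicate 1; asterisks mark an adjusted p under 0.05. Ccl7, Ccl2 and Ccl3 reach furthest to the right in replicate 1, Cx3cl1 lies furthest to the left, and Cx3cr1 and Cxcr3 stay near 0.

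The immediate-early list moved with these members between the same libraries, and other lists are given beside it. Of 20 immediate-early genes tested, 12 passed, and all 12 were highest in replicate 1: Fos, Fosb, Jun, Junb, Egr1, Egr2, Ier2, Ier3, Dusp1, Zfp36, Btg2 and Klf2. Genes of this kind are switched on quickly by many stimuli. Their summed level in replicate 1 was 1.51 times the mean of the others (2571 CPM against 1598 to 1898). The summed NF-kB feedback and early inflammatory list was at 1.04 times, a sum to which Cd14 gave 822 of 2027 CPM. Of its 19 tested genes only Tnf, a cytokine gene, passed (152 CPM against 53.5 to 83.3, edgeR adjusted p = 1.0e-20), and 4 had an unadjusted p under 0.05: Tnf, Nfkbiz, Traf1 and Ptgs2. Nfkbia, which encodes an inhibitor of NF-kB, was at 86.6, 82.2, 92.0 and 92.3 CPM. Interferon-induced genes, a list that includes Cxcl9, Cxcl10 and Cxcl11, had 0 of 16 passing the edgeR test and 1 at an unadjusted p under 0.05.

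Astrocyte markers went the other way. All 11 tested were lowest in replicate 1, 4 passed (Gfap, Slc1a3, Clu and Sparc), and their sum was 493 CPM there against 670 to 837, or 0.651 times the mean of the others; none of the 12 listed was at 0. Endothelial markers summed to 105 CPM against 121 to 136, with Tek and Emcn at 0, and mural and fibroblast markers to 82.7 against 80.9 to 111, with Acta2 passing. Neuronal markers summed to 13.4 CPM against 15.3 to 18.01, with Snap25 at 0. The 10 microglial markers summed to 15861 CPM against 15025 to 15630, and 1 of them, P2ry12, passed. Among border macrophage markers Cd163 and Lyve1 were at 0, among oligodendrocyte markers Mog, and among progenitor markers Hoxa9 and Cebpe. Other genes of these 3 lists were present: 3 of 8, 5 of 10 and 2 of 8 were detected. The lists summed to means of 1313, 262 and 117 CPM, in the same order. In them 0 genes passed the edgeR test, with 1, 1 and 0 at an unadjusted p under 0.05. In bulk RNA, fewer cells of a type and less RNA per cell cannot be told apart. The part of other cells or of early activation in the levels of Ccl2, Ccl3, Ccl7 and Cx3cl1 was not tested.

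**Figure D5:**
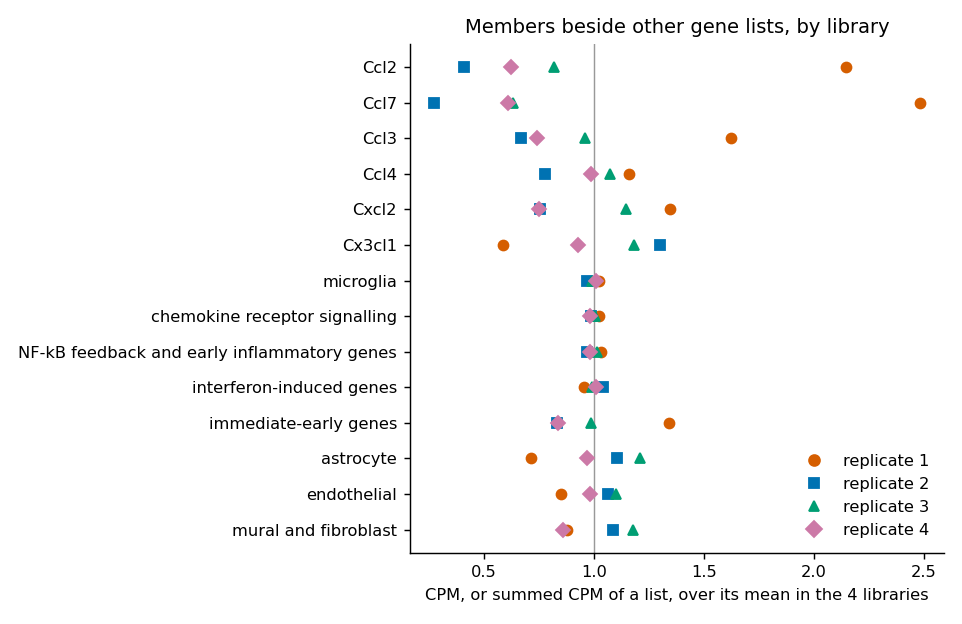
CPM of 6 members and summed CPM of 8 gene lists in each library, over the mean of the 4 libraries. Replicate 1 lies to the right for Ccl2, Ccl7, Ccl3 and the immediate-early list, to the left for Cx3cl1 and the astrocyte list, and near 1 for the microglial list.

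Most genes of the machinery that receptors act through were detected, at levels that differed widely between genes. Of 40 genes of chemokine receptor signalling, 38 were detected, with a median of 134 TPM. The highest were Gnai2, an inhibitory G protein subunit (1429 TPM ± 43.6), and the small GTPase gene Cdc42 (914 ± 29.3), and the arrestin gene Arrb2, which uncouples receptors, was at 669 ± 37.4. Only Rgs1, a brake on G protein signalling, passed the spread test, at 81.1 CPM in replicate 1 against 24.8, 31.1 and 29.8 (edgeR adjusted p = 1.6e-24). Of the 40 genes tested, 3 had an unadjusted p under 0.05 (Rgs1, Gng10 and Rap1a), beside 6.79% of all genes. Some detected genes were low, such as Grk5 (3.34 TPM ± 0.344) and Rgs18 (4.20 ± 0.442). The genes below detection were Plcb2, a phospholipase (0.446 TPM ± 0.159), and Fgr, a kinase (0.835 ± 0.255).

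Of 17 genes on a list for chemokine processing and presentation, 15 were detected. The highest were the proteoglycan core protein gene Sdc3 (594 TPM ± 22.5) and Cmtm6 (538 ± 15.7). A place on the list is no evidence of such a role, and for Cmtm6 that role was not tested. The sheddases Adam10 (237 ± 27.2) and Adam17 (135 ± 6.96), which release Cx3cl1 and Cxcl16 from the membrane, were present, whereas the trimming peptidase Dpp4 had counts in replicate 1 alone. Of 12 other chemoattractant ligands and receptors, 10 were detected, led by the complement receptors C3ar1 (721 ± 26.9) and C5ar1 (711 ± 60.5). The chemerin receptor Cmklr1 was at 123 ± 3.92, beside its ligand Rarres2 at 3.06 ± 0.359. In these lists 0 of 15 and 0 of 11 tested genes passed the edgeR spread test, with 1 each at an unadjusted p under 0.05.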

How the data were processed

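For each of 4 libraries the authors deposited a file of raw counts by gene symbol, not normalized. The submitters' processing notes name STAR (2.7.10a), SAMtools (1.16.1), HTSeq (0.11.2) and the build mm39 (GRCm39). Annotation release, strand setting and read length: not given in the sources used here. Left out were 5 summary lines (11.6% to 12.0% of all counts). No files were identical, and counts differed between every pair of libraries by 5.17 to 13.6 times the chi-square degrees of freedom. TPM used merged exon lengths from GENCODE M21 (GRCm38, lengths only), found for 61 of 62 members; the other had 0 counts. Spread between libraries was tested in edgeR 4.0.16 (R 4.3.3): 1 mean per gene, TMM, filterByExpr, trended dispersion, deviance against chi-square with 3 degrees of freedom, Benjamini-Hochberg over all genes. On simulated counts for these 12879 genes it recovered 58% of genes doubled in 1 library, 92% of those raised 4-fold and 0% at 1.5-fold, with 2 unchanged genes called. DESeq2 1.42.0 was an alternative. The members, pairs and lists were chosen with earlier results of these data known. Named genes were the detected and called members in full, the others by counts, and from each list the called and highest genes and markers at 0, of which only those bearing on members are printed. Results for 1 detected receptor and some marker genes, though counted in totals, are not reported here.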

Additional observations from a re-analysis of the deposited data

Results flagged for a closer look

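Of the 22 detected members, 1 had a library set apart from the other 3 by Dixon's criterion for 4 values, which chance meets in about 1 in 20 groups. Replicate 1 held 17.4 CPM of Ccrl2, the others 15.9, 16.0 and 15.8. Its level was 1.09 times the mean of those 3, and Ccrl2 did not pass the test of spread (edgeR adjusted p = 0.9999).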

How the results depend on the processing

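Ccl2, Ccl3 and Ccl7 were the members passing the spread test with RLE size factors, library totals, no filter, a minimum of 10 counts and as DESeq2 outliers; the count was 5 with a common dispersion, and 1 to 3 leaving out each library, 1 (Ccl2) without replicate 1. The count of detected members lay between 17 and 23 over its alternatives. The ligand minus receptor median, -0.04, turned to 0.15 with members at 1 CPM in at least 1 library and to 0.017 without atypical receptors; leaving out each library it ran from -0.14 to 0.058, and without replicate 1 or 2 it was 0.014 and 0.058, so its sign was not stable. On CPM without gene length the summed levels differed by -2.33 with Cx3cr1 and 0.22 without it. Of the 30 pairs, 3 turned on CPM without gene length, Ccl3 minus Ccr1 to -1.13. With the median length of coding transcripts, an alternative chosen after seeing the data, 3 turned, Cxcl10 minus Cxcr3 to 0.19. Leaving out any library turned 0 of the 30 pairs; a pseudocount of 0.1 or 10 turned 0 and moved 19 and 26 beyond 1 SD, and CPM and median lengths moved 22 and 17. Genes under about 1 CPM rest on few counts. On simulated counts the spread test recovered 0% of genes raised 1.5-fold in 1 library. In the data some well-counted genes passed with modest differences, such as Junb at 400 CPM in replicate 1 against 295, 340 and 275 (edgeR adjusted p = 0.014).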
